A study of Mus musculus with 25 samples.

Results

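The STAT transcription factors were taken as the 6 genes Stat2, Stat3, Stat4, Stat5a, Stat5b and Stat6, found by their symbols among the 24411 gene symbols of the count files. Their RNA-seq counts were read in 25 samples of 9 conditions. BMDMs, macrophages grown from the bone marrow of C57BL/6 mice with 25 ng/ml M-CSF for 4 days, made up 21 samples. There were 3 control samples, which had been in culture for 4 h. Stimulation with 100 U/ml IFN-γ and 100 ng/ml LPS (IFN-γ-primed LPS) had 3 samples each for 1, 4, 12 and 24 h. The paper describes IFN-γ as a pretreatment and gives no length for it. The exposure to IFN-γ may thus have been longer than these times. A further 3 samples had 10 ng/ml IL-4 for 12 h and 3 had 10 ng/ml IL-13 for 12 h. RAW264.7, an established mouse macrophage cell line, gave 2 control samples, also cultured for 4 h, and 2 samples with 100 ng/ml LPS for 4 h and no IFN-γ. Per the paper, the line stems from Balb/c mice infected with Abelson murine leukemia virus. It was grown in another medium than the BMDMs. The control of 4 h is the control of every BMDM group, so for stimulation of 1, 12 and 24 h the stimulus and the time in culture cannot be told apart. The age of the mice is not given in the sources used here, and BMDMs with LPS alone were not analysed here. The study's methods describe the replicates as independent RNA samples.

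STAT proteins wait in the cytoplasm and are phosphorylated by Janus kinases (JAKs) that sit on cytokine receptors. They then pair, enter the nucleus and bind DNA. Stat2 acts with another STAT protein and Irf9 in the complex ISGF3, which answers type I interferons, Stat3 serves IL-6 and IL-10, Stat4 serves IL-12 in T and NK cells, Stat5a and Stat5b serve GM-CSF and related cytokines, and Stat6 serves IL-4 and IL-13 and drives alternative activation of macrophages. The activity of a STAT protein depends on its phosphorylation, which counts of its RNA do not show.

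The genes lie in 3 groups in the mouse genome (GRCm38, the assembly of mm10, with GENCODE M21 genes). Stat5b (chr11:100780731-100850724, minus strand), Stat5a (chr11:100859351-100885169, plus strand) and Stat3 (chr11:100885098-100939540, minus strand) are neighbours. Stat5b and Stat5a start 8626 bases apart on opposite strands, and the 3′ ends of Stat5a and Stat3 overlap by 72 bases. Stat6 (chr10:127642986-127660957) and Stat2 (chr10:128270559-128292849) are both on the plus strand of chromosome 10, and Stat4 (chr1:51987148-52107189) is on chromosome 1. All 6 are protein-coding genes. Counts were taken from the sense strand, and the other strand held between 0% (Stat4) and 1.21% (Stat6, whose 3′ end overlaps Nab2 by 40 bases) of each gene's reads. Stat5a and Stat5b arose from a gene duplication. Of all windows of 101 bases in their longest coding transcripts, 6.92% for Stat5a and 5.12% for Stat5b were identical in the other gene. A read of that length from there cannot by itself be assigned to either. Reads were paired, and where the mate of such a read fell was not considered.

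Promoter sequences from RefSeq (GRCm38.p6) are shown for 3 genes with different behaviour under IFN-γ-primed LPS, Stat2 with the largest change against control, Stat3 with a smaller rise, and Stat6 with no change against control that passed the test. Each run is the 250 bases before the start, 5′ to 3′ on the strand of the gene, at chr10:128270248-128270497 for Stat2, chr11:100939541-100939790 (minus strand) for Stat3 and chr10:127642736-127642985 for Stat6. Capitals mark matches to the motifs named after the sequences.
Stat2: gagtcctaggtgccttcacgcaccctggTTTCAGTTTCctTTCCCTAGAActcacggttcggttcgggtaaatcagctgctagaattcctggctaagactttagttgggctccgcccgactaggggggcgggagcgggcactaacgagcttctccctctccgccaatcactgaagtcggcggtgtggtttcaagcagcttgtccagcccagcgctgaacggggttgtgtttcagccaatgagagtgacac
Stat3: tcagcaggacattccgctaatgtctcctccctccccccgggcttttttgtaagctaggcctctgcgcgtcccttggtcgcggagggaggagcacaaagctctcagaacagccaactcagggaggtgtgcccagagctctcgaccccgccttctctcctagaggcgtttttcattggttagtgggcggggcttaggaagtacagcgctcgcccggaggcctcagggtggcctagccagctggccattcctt
Stat6: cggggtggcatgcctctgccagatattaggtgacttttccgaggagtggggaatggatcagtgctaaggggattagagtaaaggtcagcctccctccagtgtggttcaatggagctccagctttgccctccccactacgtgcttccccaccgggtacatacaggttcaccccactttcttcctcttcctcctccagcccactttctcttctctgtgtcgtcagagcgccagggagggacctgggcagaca
The motifs searched were GAAANNGAAA, the core of the interferon-stimulated response element (ISRE) that ISGF3 and IRF proteins bind, and TTCNNNGAA and TTCNNNNGAA, the sites of STAT pairs with 3 or 4 bases in between. Both strands were read. The Stat2 window held an ISRE core on the minus strand (TTTCAGTTTC on the strand shown, 222 to 213 bases before the start) and, beginning 210 bases before the start, a STAT site with 4 bases in between (TTCCCTAGAA). Neither overlapped the other. The RefSeq start of Stat2 used here lies before the GENCODE start given above, and no GENCODE transcript of Stat2 held the bases just after it. The windows of Stat3 and Stat6 held none of the 3 motifs, and neither did the 2 windows of Stat5a and the 2 of Stat5b. Those of Stat5a shared 175 and 139 of their 250 bases with exons of the gene, and 1 of Stat5b shared 143. One of the windows of Stat4, before an inner start (chr1:52007990-52008239), held an ISRE core. Of all 32851 mouse promoter windows of this length, 2.98% held the ISRE core, 7.02% TTCNNNGAA and 5.85% TTCNNNNGAA. A match is a description of the letters and not a bound site.

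Between 1502618 and 2532496 counts per sample remained for analysis after the ribosomal gene Rn45s was left out. Levels are given as CPM, counts scaled to a common library size, after TMM scaling. TMM sets the samples level on their typical gene and gave factors of 1.09 to 1.11 in the control samples but 0.717 to 0.751 in the 4 h samples with IFN-γ-primed LPS. By plain library totals the median log2 change of all genes tested was -0.22 in the 1 h samples, -0.61 in those of 4 h, -0.34 in those of 12 h and -0.20 in those of 24 h, compared with -0.03, -0.07, -0.03 and 0.02 under TMM. Changes of a STAT gene are therefore changes relative to the typical gene. Macrophage markers summed to between 19077 and 32988 CPM in BMDMs. RAW264.7 had between 8534 and 10270 CPM, with 9 of 10 markers seen, Mertk at 0 and Aif1 at no more than 4 counts. Of 9 T and NK cell markers, Cd3d, Cd3e, Cd3g and Gzma were at 0 in all 25 samples, and the summed level of the list was 1.09 to 2.67 CPM in the control but 11.5 to 20.4 CPM in the samples stimulated for 4 h with IFN-γ-primed LPS, mostly from Lck and Cd247. Neutrophil and granulocyte precursor markers, 7 of 8 of them in the files, summed to 37.3 to 51.7 CPM at 4 h and 13.6 to 23.5 CPM in the control. The 5 dendritic cell markers summed to 0 to 0.542 CPM in the control, and to 5.31 to 11.5, 13.3 to 25.3 and 17.4 to 21.1 CPM after 4, 12 and 24 h, mostly from Ccr7. The 5 fibroblast and stromal cell markers summed to 52.4 to 109 CPM in BMDMs and were at 0 in RAW264.7. B cell markers summed to at most 1.79 CPM, and mast cell and basophil markers to at most 0.842 CPM. The part of these lists in the results was not tested. In bulk RNA, fewer cells of a type and less RNA per cell cannot be told apart.

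In control BMDMs, Stat6 RNA was the most abundant of the 6 and Stat4 RNA was at the edge of detection. Levels of different genes were compared per kilobase (kb) of exon. Stat6 stood at 60.3 ± 2.23 CPM per kb (SD, n = 3), Stat3 at 13.2 ± 0.640, Stat5b at 11.2 ± 0.284, Stat2 at 4.48 ± 0.202, Stat5a at 3.92 ± 0.414 and Stat4 at 0.232 ± 0.214. No 2 neighbours in this order overlapped between samples, but Stat2 and Stat5a changed places when levels were set per kb of the longest transcript. Stat6 made up 64.6% of the summed CPM per kb of the 6 genes in the control. At 4 h of IFN-γ-primed LPS, its share was 19.8%, with 29.4% for Stat2, 23.2% for Stat3 and 21.7% for Stat5a. The 6 genes summed to 93.4 CPM per kb in the control, and after 4, 12 and 24 h the sums were 286, 197 and 153. The shares were taken from the group means. At 4 h the order was Stat2, Stat3, Stat5a, Stat6, Stat5b, Stat4, with overlap between Stat3 and Stat5a, and Stat5a came before Stat3 per kb of the longest transcript. Per kb of the longest coding transcript, Stat5a also came before Stat2 (114 against 113 CPM per kb). By 24 h Stat6 was first again, with 42.3% of the sum. After IL-13 it held 65.2% and after IL-4 67.04%, and in RAW264.7 73.5% at rest and 68.9% after LPS.

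**Figure D1:**
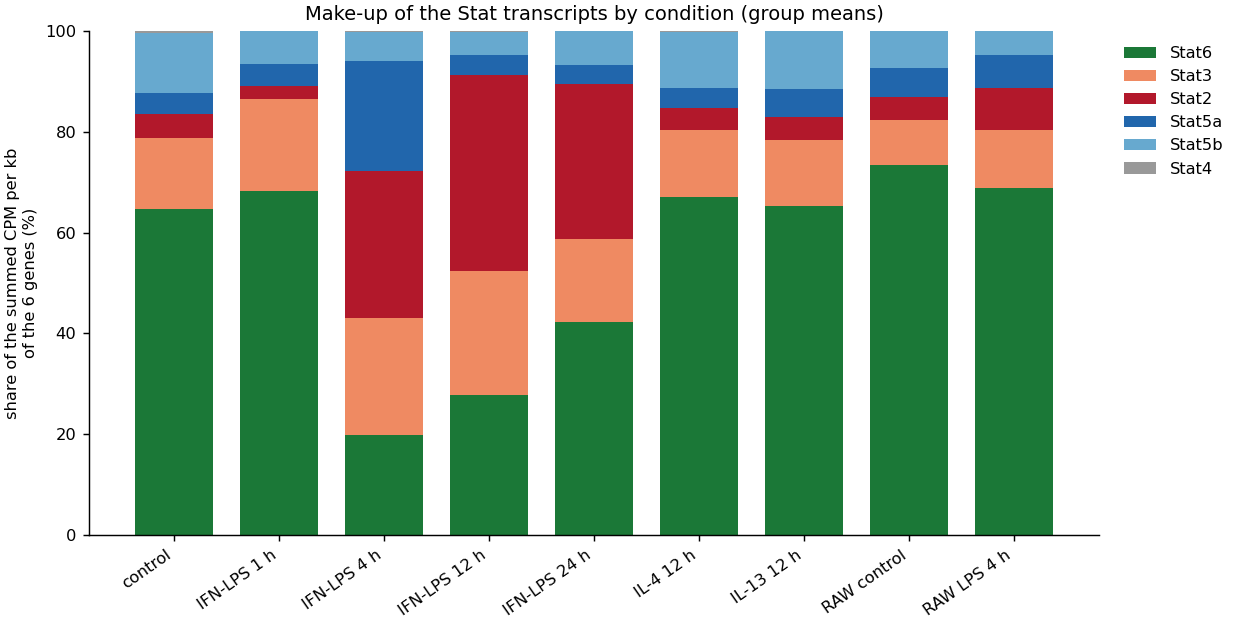
Share of the summed CPM per kb of exon of the 6 genes (vertical axis, %, means over samples) in each of the 9 conditions (horizontal axis). Stat6 fills 64.6% of the control bar and 19.8% of the bar at 4 h of IFN-γ-primed LPS, where Stat2, Stat3 and Stat5a take most of the rest. Stat4 is too thin to see.

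In the time course, a gene passed the test at an FDR of at most 0.01 (edgeR's quasi-likelihood test, adjusted over all 9568 genes tested), whatever the size of the change. Stat4 had too few counts to be tested, so counts below are of 5 genes. At 1 h, Stat3 was higher than control and Stat2 and Stat5b were lower, 1 and 2 of 5 against 14.7% and 11.3% of all genes tested. At 4 h, 4 of 5 were higher (Stat2, Stat3, Stat5a and Stat5b) and 0 were lower, against 26.0% and 25.6% of all genes. At 12 h, Stat2, Stat3 and Stat5a were higher and 0 were lower (23.9% and 23.4% of all genes), and at 24 h Stat2 and Stat3 were higher and 0 were lower (23.9% and 21.3%). These comparisons share the same 3 control samples. Between time points, 4 rose and Stat6 fell from 1 h to 4 h (19.8% and 19.1% of all genes rose and fell). From 4 h to 12 h, 0 rose and Stat3, Stat5a and Stat5b fell (16.7% and 19.2%). From 12 h to 24 h, 0 rose and Stat2 and Stat3 fell (5.31% and 8.90%). The plot of levels by sample shows each gene's course.

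**Figure D2:**
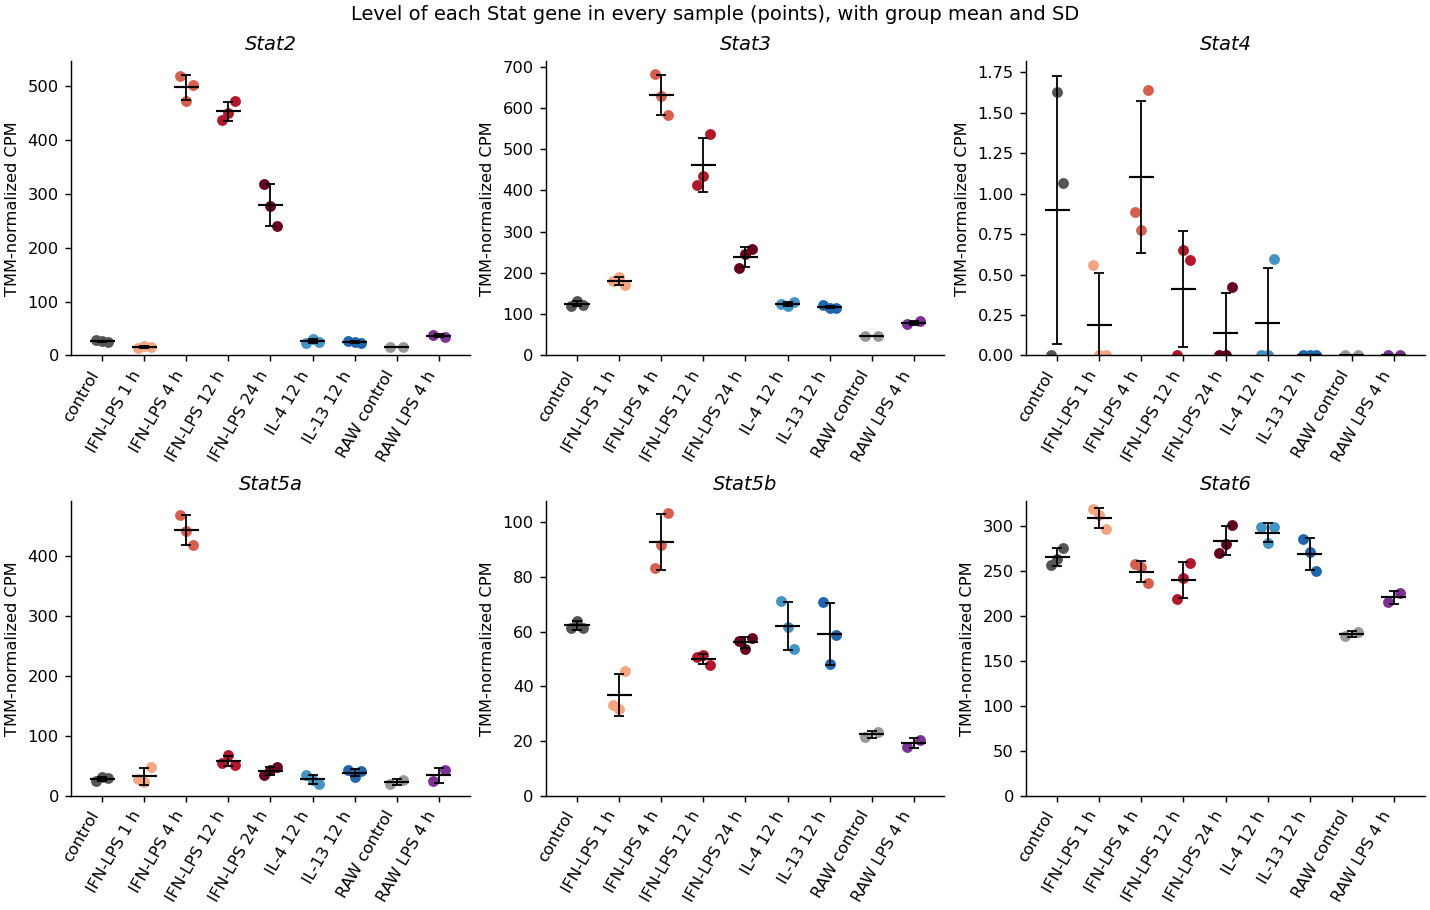
TMM-normalized CPM (vertical axis, linear, from 0, with its own scale in each panel) of each gene in every sample (points) of the 9 conditions (horizontal axis), with the group mean and SD as black lines. Stat2 stays high from 4 h to 24 h, Stat5a peaks in the 4 h samples, and Stat4 does not pass 1.64 CPM in any sample.

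Stat2, the partner that gives ISGF3 its activation domain, first fell and then rose more than the other members. Control samples had 27.9, 26.0 and 25.7 CPM, and samples at 1 h had 14.0, 17.4 and 15.7 CPM. All 3 samples at 1 h lay below all 3 controls (log2 fold change -0.79, SE 0.19, FDR 0.00080). The 4 h samples had 519, 473 and 503 CPM, the 12 h samples 438, 451 and 473 CPM, and the 24 h samples 319, 277 and 241 CPM. Every one of these 9 samples was far above every control. For the 4 h samples the log2 fold change was 4.17 (SE 0.13, FDR 8.7e-32), an 18.0-fold rise. After 12 h it was 4.04 (SE 0.13) and after 24 h 3.38 (SE 0.13, FDR 8.7e-28), a 16.5-fold and a 10.4-fold rise. From 1 h to 4 h, Stat2 rose 31.2-fold, and 53 of the 9568 genes had a larger log2 fold change over that step (it was number 54). By library totals the rise at 4 h was 3.64 on the log2 scale. From 4 h to 12 h the log2 change was -0.13 (95% interval -0.31 to 0.06), which did not pass, and 0.09 by library totals. The fall from 12 h to 24 h, by 0.66, passed (FDR 3.1e-07). Leaving out the first sample at 1 h ended the call at 1 h, with a log2 change of between -0.86 and -0.71 over all samples left out.

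Stat3, the factor of IL-6 and IL-10 signalling, was already higher at 1 h and reached its peak at 4 h. It had 121, 132 and 123 CPM in control samples, 180.2, 189.8 and 171 CPM at 1 h, and 682, 630.1 and 583 CPM at 4 h. No sample at 1 h or 4 h overlapped with a control. The log2 fold change was 0.49 (SE 0.11, FDR 0.00028) at 1 h and 2.27 (SE 0.10, FDR 2.6e-24) at 4 h. By library totals these were 0.30, which did not pass (FDR 0.019), and 1.74. At 12 h Stat3 had 413, 436 and 537 CPM and at 24 h 211, 246 and 258 CPM, 1.83 (SE 0.10) and 0.92 (SE 0.11, FDR 1.9e-10) above control on the log2 scale. The samples at 24 h all lay below those at 12 h and above the control. The fall from 4 h to 12 h, by 0.44 (FDR 0.00013), was 0.23 by library totals and did not pass there (FDR 0.036), while that from 12 h to 24 h, by 0.91 (FDR 2.7e-10), passed under both.

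Stat5a and Stat5b, neighbouring genes whose proteins both answer GM-CSF, parted ways. Stat5a had 24.7, 30.4 and 28.9 CPM in the control, 469, 443 and 419 CPM at 4 h, and 54.9, 66.97 and 51.8 CPM at 12 h. Its level at 4 h stood apart from all other conditions, where no sample had more than its 12 h maximum. The log2 fold change at 4 h was 3.93 (SE 0.16, FDR 3.3e-22), a 15.2-fold rise, and 3.398 by library totals. From 4 h to 12 h it fell by 2.93 (SE 0.14, FDR 9.1e-19), a fall that put Stat5a in the lowest 0.742% of all genes for that step. At 12 h it was still 0.996 above control (SE 0.19, FDR 2.9e-05). At 24 h, with 34.7, 42.3 and 47.2 CPM, it was 0.56 above control (SE 0.19), which did not pass (FDR 0.013). It passed without the first sample of 24 h (0.68), with no filter beyond 1 count (0.60, FDR 0.00099) and in a fit of only the 2 groups (0.55, FDR 0.0034), and by library totals it was 0.34 (FDR 0.14). At 1 h its samples had 26.9, 21.9 and 48.6 CPM and overlapped with the control (log2 change 0.21, 95% interval -0.20 to 0.63, FDR 0.45). Without the third sample at 1 h this change was -0.20.

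Stat5b had 61.2, 64.0 and 61.5 CPM in the control and 33.0, 31.5 and 45.5 CPM at 1 h, a fall by 0.78 (SE 0.15, FDR 2.3e-05) with no overlap. At 4 h it had 83.2, 91.7 and 103 CPM, above each control sample. The log2 change at 4 h was 0.52 (SE 0.13, FDR 0.00077) under TMM but -0.01 (FDR 0.95) by library totals, so its rise at 4 h was a rise relative to the typical gene alone. It was also lost (0.36, FDR 0.015) when genes had to have at least 10 counts in every sample. At 12 h it had 50.8, 51.4 and 47.7 CPM and at 24 h 56.7, 53.7 and 57.7 CPM. These lay below the control but did not pass (log2 change -0.36, FDR 0.024, and -0.15, FDR 0.33), and at 12 h it passed by library totals (-0.67, FDR 5.6e-05) and with at least 10 counts in every sample (-0.47, FDR 0.0031). The ratio of Stat5a counts to Stat5b counts within a sample is free of scaling. The control samples had ratios of 0.404 to 0.475 and the 1 h samples of 0.694 to 1.07. The 4 h samples reached 4.06 to 5.64, and the ratios of the later samples were 1.08 to 1.30 (12 h) and 0.612 to 0.818 (24 h). All 12 stimulated samples were above all 3 controls.

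**Figure D3:**
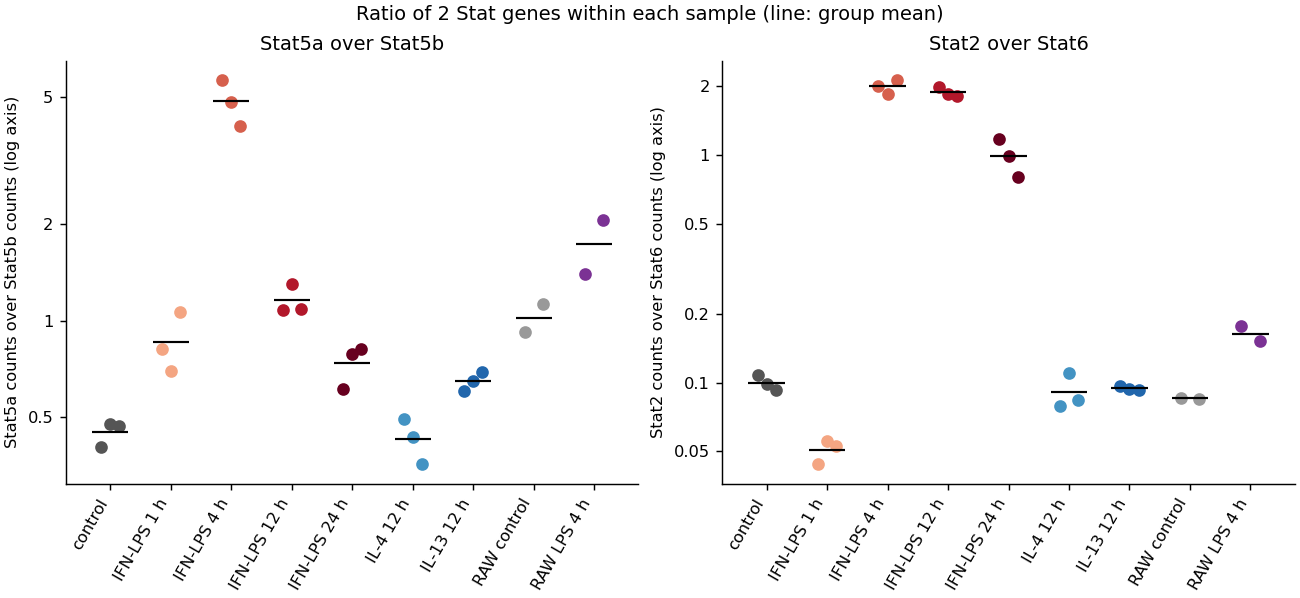
Stat5a counts over Stat5b counts (left) and Stat2 counts over Stat6 counts (right) in each sample (points, log axis) of the 9 conditions, with lines at group means. The Stat5a to Stat5b ratio is 4.06 to 5.64 in the 4 h samples and 0.404 to 0.475 in the control samples, and the Stat2 to Stat6 ratio is 1.86 to 2.13 and 0.0928 to 0.109 in the same samples.

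Stat6, the factor of IL-4 and IL-13 signalling, varied least. It had 257, 264 and 276 CPM in the control, 319, 313 and 297 CPM at 1 h and 258, 255 and 236 CPM at 4 h. The 12 h samples had 219, 243 and 259 CPM and the 24 h samples 270.3, 280.4 and 302 CPM. Samples at 1 h all lay above the control, while those at 4, 12 and 24 h overlapped with it. The log2 change against control was 0.19 (95% interval 0.01 to 0.37, FDR 0.10), -0.15 (-0.34 to 0.04, FDR 0.18), -0.19 (-0.38 to -0.01, FDR 0.073) and 0.09 (-0.09 to 0.27, FDR 0.40), none of which passed. With at least 10 counts asked for in every sample, the changes at 4 h (-0.30, FDR 0.0042) and 12 h (-0.30, FDR 0.0038) did. All 3 samples of 24 h lay above those of 12 h, a log2 change of 0.28 (95% interval 0.10 to 0.47, FDR 0.019) that did not pass but did by library totals (0.37, FDR 0.0014) and with at least 10 counts in every sample (0.31, FDR 0.0073). From 1 h to 4 h Stat6 fell by 0.34 (FDR 0.0026), a call that was lost when either of 2 samples at 1 h or 1 sample at 4 h was left out. By library totals, Stat6 was lower than control at 4 h (-0.68, FDR 1.4e-08) and 12 h (-0.50, FDR 4.5e-06), and near 0 at 1 h (-0.0018). Within a sample, the ratio of Stat2 counts to Stat6 counts was 0.0928 to 0.109 in the control and 0.0439 to 0.0556 in the 1 h samples. It was 1.86 to 2.13 in the 4 h samples and 1.83 to 1.99 in the 12 h samples, so that Stat2 counts passed those of Stat6. In the 24 h samples it was 0.800 to 1.18 (mean 0.989), and Stat2 counts were not above those of Stat6 in every sample.

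Stat4, the factor of IL-12 signalling in lymphocytes, had between 0 and 3 counts in each sample and 14 in all. It was at 0 counts in 15 of 25 samples, among them all samples with IL-13 and all of RAW264.7. A count of 0 allows up to 3 counts, which is 1.18 to 1.997 CPM by library totals, for counting error alone. Stat4 was not compared between conditions, since counts this low did not pass the filter of the main fits.

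**Figure D4:**
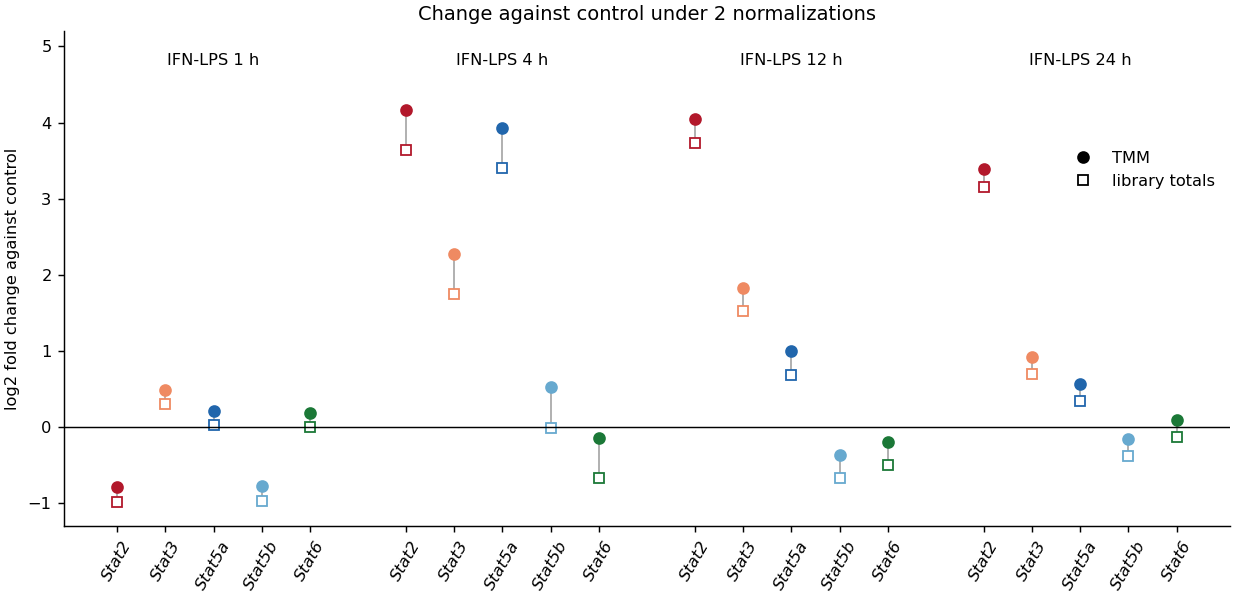
Log2 fold change against control (vertical axis) of 5 genes at each time point of IFN-γ-primed LPS, under TMM (filled circles) and under library totals (open squares). Stat2, Stat3 and Stat5a stay above 0 at 4 h and 12 h under both, Stat5b at 4 h moves from 0.52 to -0.01, and Stat6 at 4 h moves from -0.15 to -0.68.

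IL-4 and IL-13, which signal through Stat6, left the RNA of all 5 tested genes without a call. With IL-4, 0 were higher and 0 lower, against 4.38% and 3.25% of the 9252 genes tested, with IL-13 0 and 0 against 5.61% and 4.49%, and between IL-13 and IL-4 0 and 0 against 0.0865% and 0.0216%. At an unadjusted p under 0.05, edgeR gave 0 of 5 with IL-4, and Stat5a alone with IL-13 and between IL-13 and IL-4. DESeq2 called 0 in each at an FDR of 0.01. At an unadjusted p under 0.05, DESeq2 gave 1 of 5 between IL-13 and IL-4 and 0 for each against control. Stat6 had 299, 281 and 299 CPM with IL-4 and 286, 272 and 250.5 CPM with IL-13. The IL-4 samples lay above the 3 controls and the IL-13 samples overlapped with them. The log2 change of Stat6 was 0.13 after IL-4 (95% interval -0.05 to 0.31) and -0.0014 after IL-13 (-0.18 to 0.18). For Stat3 it was -0.01 (-0.22 to 0.20) and -0.12 (-0.32 to 0.09), for Stat2 -0.01 (-0.37 to 0.35) and -0.08 (-0.44 to 0.28), and for Stat5b -0.0072 (-0.28 to 0.27) and -0.10 (-0.37 to 0.18). The intervals give the sizes of change that these samples leave possible. Stat5a had 35.1, 26.7 and 19.1 CPM with IL-4 and 42.6, 31.2 and 40.5 CPM with IL-13. All IL-13 samples were above the control and 1 IL-4 sample fell between them. Its log2 change with IL-13 was 0.42 (0.06 to 0.78, FDR 0.10), and IL-13 against IL-4 gave 0.47 (0.11 to 0.83, FDR 0.50). The ratio of Stat5a to Stat5b counts ran from 0.356 to 0.493 in the IL-4 samples and from 0.602 to 0.690 in the IL-13 samples, with no overlap.

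**Figure D5:**
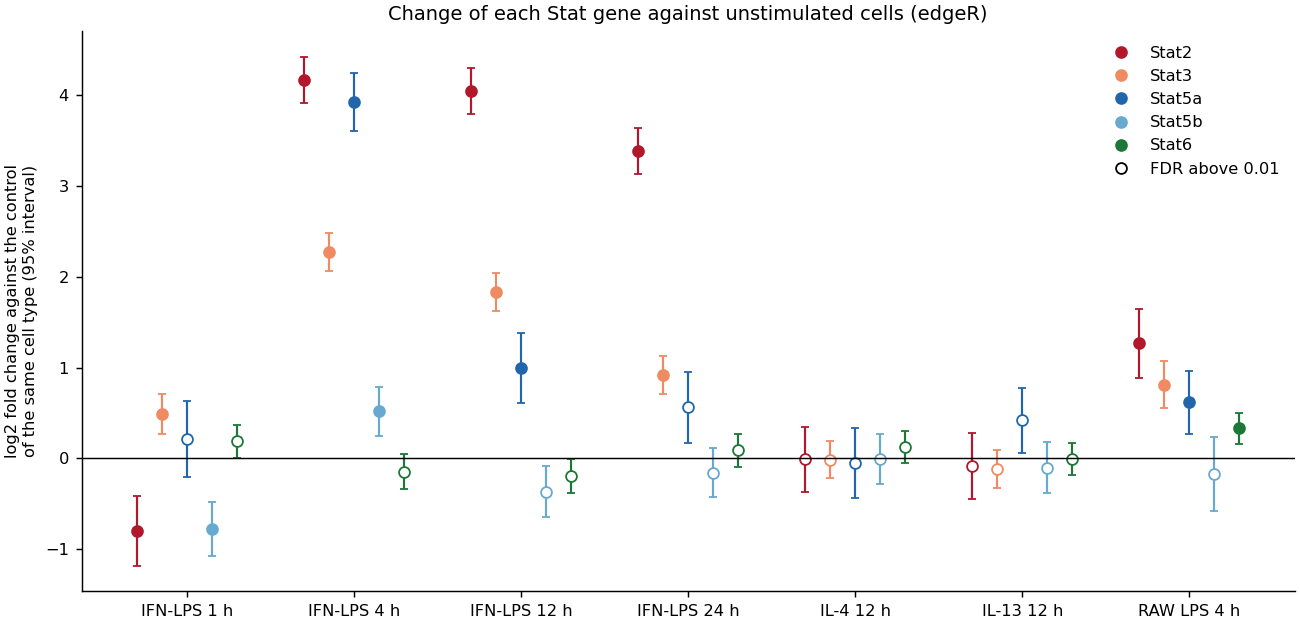
Log2 fold change (vertical axis) of 5 genes against the control of the same cell type in 7 stimulated conditions (horizontal axis), with 95% intervals from edgeR. Filled points passed an FDR of 0.01, and open points did not. The IL-4 and IL-13 points are all open, with values between -0.12 and 0.42, and Stat2 is the highest point at 4, 12 and 24 h and in RAW264.7.

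The 3 stimuli of 12 h can be compared without the 4 h control. Stat2, Stat3 and Stat5a were higher with IFN-γ-primed LPS than with IL-4 (3 of 5, and 0 lower, against 22.1% and 20.6% of 9380 genes) and than with IL-13 (3 and 0, against 21.9% and 20.3%). Stat2 was 4.10 (SE 0.13) and 4.16 (SE 0.13) higher on the log2 scale, and Stat3 1.88 (SE 0.11) and 1.98 (SE 0.11). Both had all 3 samples above all samples with IL-4 or IL-13. Stat5a was 1.09 (SE 0.18, FDR 4.5e-06) higher than with IL-4 and 0.61 (SE 0.17, FDR 0.0030) higher than with IL-13. The latter was lost with DESeq2 (FDR 0.012), by library totals (0.23, FDR 0.27), and without the second sample of IFN-γ-primed LPS or of IL-13. By library totals Stat6 and Stat5b were also called, both lower, against each cytokine, and with at least 10 counts in every sample Stat6 was called lower than with IL-4 (-0.34, FDR 0.0049).

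In RAW264.7 cells, 4 of 5 genes were higher after 4 h of LPS and 0 were lower, against 15.1% and 12.8% of the 9406 genes tested. Stat2 had 15.3 and 15.6 CPM at rest and 38.2 and 34.3 CPM with LPS, 1.27 higher on the log2 scale (SE 0.19, FDR 6.4e-10). Stat3 had 46.5 and 46.7 CPM at rest and 76.1 and 82.8 CPM with LPS, 0.81 higher (SE 0.13, FDR 1.0e-08). For both genes the groups did not overlap. Stat6 had 178 and 183 CPM at rest and 216 and 226 CPM with LPS (log2 change 0.33, SE 0.09, FDR 0.00076). Stat5a had 19.8 and 26.1 CPM at rest and 25.1 and 42.3 CPM with LPS (0.62, SE 0.18, FDR 0.0024). The Stat5a groups overlapped and its change ran from 0.17 to 0.93 with 1 sample left out. The calls of Stat5a and Stat6 were lost with DESeq2 (FDR 0.20 and 0.038), by library totals (0.44, FDR 0.042, and 0.15, FDR 0.17), and without the first control or the second LPS sample. With 2 samples in a group, the test leans on the spread borrowed from all genes. Stat5b had 21.5 and 23.2 CPM at rest and 17.9 and 20.4 CPM with LPS (-0.17, 95% interval -0.58 to 0.23, FDR 0.55).

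At rest, 4 of 5 genes were lower in RAW264.7 than in BMDMs and 0 were higher, against 34.7% and 32.9% of 10269 genes. The log2 fold change was -1.51 (SE 0.16) for Stat5b, -1.46 (SE 0.13) for Stat3, -0.81 (SE 0.20, FDR 0.00016) for Stat2 and -0.59 (SE 0.10, FDR 3.8e-08) for Stat6, with no overlap between samples. Stat2 did not pass by library totals (-0.53, FDR 0.015). Stat5a did not pass (-0.32, 95% interval -0.70 to 0.06, FDR 0.12). Mouse strain, virus and medium also differed between the 2 kinds of cells, and their part cannot be told apart from that of cell type. The change over 4 h was also compared between the cells, as the log2 change in RAW264.7 minus that in BMDMs. It was smaller in RAW264.7 for 4 of 5 genes and larger for 0, against 16.4% and 11.1% of all genes. The difference was -3.399 for Stat5a (SE 0.24, FDR 1.4e-26), -2.99 for Stat2 (SE 0.26, FDR 2.1e-21), -1.55 for Stat3 (SE 0.17, FDR 1.0e-14) and -0.78 for Stat5b (SE 0.25, FDR 0.0075). That of Stat5b was lost by library totals (-0.35, FDR 0.26), with DESeq2 (FDR 0.036), with no filter beyond 1 count (FDR 0.013), with at least 10 counts in every sample (FDR 0.020), and in 7 of 10 fits with 1 sample left out. For Stat6 it was 0.39 (SE 0.14, FDR 0.019), which did not pass, and by library totals 0.83 (FDR 2.4e-07) and with at least 10 counts in every sample 0.51 (FDR 0.0011), which did. The BMDMs had IFN-γ as well as LPS, so cell type and stimulus cannot be told apart.

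The kinases, receptors and cytokines that act on STATs moved under IFN-γ-primed LPS as well. They were followed in lists of pathway genes. At 4 h, 26.0% of all genes tested were higher and 25.6% lower. Of 4 Janus kinases, 3 were higher at 4 h and 0 lower (median log2 change 1.06, with -0.07 for all genes). Jak2, which serves the IFN-γ and GM-CSF receptors, rose from 55.6 to 64.4 CPM in the control to between 1428 and 1551 CPM at 4 h (4.57, SE 0.11), and Tyk2, a kinase of the type I interferon receptor, rose by 1.52 (SE 0.13). Of 20 receptor genes tested (22 in the list), 10 were higher and 4 lower at 4 h (median 0.54). Il15ra, the α chain of the IL-15 receptor, rose by 6.81 (SE 0.21) and Il2rg, the shared γ chain, by 2.90 (SE 0.17), while Il6ra, the IL-6 receptor, fell by 2.49 (SE 0.31). Of 15 cytokines, 10 were tested, with 9 higher and 0 lower. In 5 of the 10 a group was at 0 counts, and genes like these passed the filter on low counts through the samples where they were high, so their direction was largely fixed and the count supports nothing. Il27 and Il6 had 0 counts in the control and were at least 4358-fold and 1275-fold higher at 4 h, taking 3 counts over the control samples as the limit. The median of the cytokines was 7.90, or 5.73 with genes at 0 in a group set at such a limit. Library totals place the typical gene at -0.61 and not -0.07 at 4 h, a shift as large as the medians of the receptors and inhibitors.

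Of 16 inhibitors of STAT signalling tested (17 in the list), 7 were higher and 1 lower at 4 h (median 0.44), and of 4 partners 2 were higher and 0 lower, against 26.0% and 25.6% of all genes. Counting calls in either direction, the shares called were near that of all genes. By direction, both lists had a larger share higher and a smaller share lower than all genes. The lists are small, and this difference was not tested. Socs3, which blocks the IL-6 receptor, went from 4 counts over the control samples to between 669 and 778 CPM (9.76, SE 0.22), and Usp18, a brake on the type I interferon receptor, rose by 9.35 (SE 0.20). Among the partners, Nmi rose by 4.28 (SE 0.22) and Irf9, which joins Stat2 in ISGF3, by 2.10 (SE 0.14). Irf9 had 32.6 to 33.6 CPM in the control and 137 to 166 CPM at 4 h. Textbook targets of ISGF3 were all higher at 1 h (8 of 8, median 5.22, against 14.7% of all genes) and at 4 h (8 of 8, median 10.11). In the fit of control, IL-4 and IL-13 samples, only 2 of the 8 had enough counts to be tested. Most of the 8 thus passed the filter on low counts through the samples with IFN-γ-primed LPS. Their direction was largely fixed, and the count supports nothing. Stat2 RNA itself was below control at 1 h. Rsad2, an antiviral enzyme, rose by 7.02 (SE 0.24) at 1 h and Ifit1 by 6.84 (SE 0.24). Of textbook targets of Stat3, 4 of 5 were higher at 4 h and 0 lower (median 2.92), and of Stat5a and Stat5b 3 of 5 and 0 (median 4.49). Only 3 of the 5 of Stat3 were tested in the fit with IL-4 and IL-13. Among those of Stat5a and Stat5b, 1 was at 0 counts in a group. Some of these genes may have passed the filter in the same way.

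With IL-4 and IL-13, the textbook targets of Stat6 that could be tested were higher, while Stat6 RNA did not pass the test. Of 10 textbook targets, 6 were tested and 4 were not. All 6 rose with IL-4 (median 3.91) and with IL-13 (median 5.19, or 5.18 with Arg1 at its limit). The median over all genes was -0.01 in both, and 4.38% of all genes were higher with IL-4 and 5.61% with IL-13. In the time course, without IL-4 and IL-13 samples, only 4 of the 10 had enough counts to be tested. Some of the 6 thus passed the filter through the samples where they were high. The direction of those genes was largely fixed, and the count of 6 supports nothing. Arg1, arginase 1, had 0 counts in the control and was at least 50.9-fold higher with IL-4 and 72.5-fold higher with IL-13. Chil3, a secreted chitinase-like protein, rose by 7.12 (SE 0.15) and 8.07 (SE 0.14). Between the cytokines, Irf4, Pdcd1lg2 and Chil3 were higher with IL-13, by 1.49 (SE 0.25, FDR 0.00041), 1.08 (SE 0.21, FDR 0.0056) and 0.95 (SE 0.08, FDR 8.6e-13). Jak2 rose by 1.19 (SE 0.11) with IL-4 and 1.68 (SE 0.11) with IL-13, and was 0.48 higher with IL-13 (SE 0.10, FDR 0.0079). Socs1, an inhibitor of JAKs, rose by 2.98 (SE 0.46) and 3.68 (SE 0.41), from 8 counts over the control samples. Cish, a target of Stat5a and Stat5b, had 0 counts in the control and was at least 25.2-fold higher with IL-13.

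Genes with a course like that of a member were sought over the 7 BMDM conditions, by Pearson correlation of mean log2 CPM among 8732 genes. These correlations rest on 7 points that share libraries and scaling, and many genes follow the same stimulus. For Stat2 the closest were Mitd1 (r = 0.996), Tdrd7 (0.996) and Trim14 (0.995). For Stat3 they were Zcchc6 (0.996), Gm4841 (0.994) and Caprin1 (0.993), and for Stat5a Zhx2 (0.998), 4930453N24Rik (0.996) and Ep400 (0.994). Zhx2 went from 2.69 CPM in its lowest condition to 40.3 CPM in its highest, while Stat5a had a log2 range of 4.03. Stat5b was closest to Ncoa6 (0.972), Zfp746 (0.968) and Zfp212 (0.951). Stat6, with a log2 range of only 0.37 over the 7 conditions, was closest to Orc6 (0.941), Me2 (0.934) and Bin1 (0.921). Among the members, Stat2 and Stat3 were most alike (r = 0.896), followed by Stat3 and Stat5a (0.836), and the 2 neighbours Stat5a and Stat5b had r = 0.693.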

How the data were processed

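Directional libraries were sequenced as paired reads of 101 bases. The labels name polyA RNA as the molecule and also describe removal of ribosomal RNA. Per the submitters' processing notes, CASAVA 1.8.2, Trimmomatic 0.33 and STAR 2.5.1 were used with mm10. The annotation release is not given in the sources used here. The authors deposited raw counts per gene and strand for each sample. The sense-strand column was used here. Rn45s took 20.1% to 39.8% of the 2378639 to 3357300 counts on genes and was left out.

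Counts were tested in R 4.3.3 with edgeR 4.0.16 (filterByExpr, TMM, robust quasi-likelihood F test, Benjamini-Hochberg adjustment over all genes of a contrast). The fits held 15 samples for the time course, 9 for IL-4 and IL-13, 9 for the 12 h stimuli, 4 for RAW264.7 and 10 for both cell types, each with its own TMM factors, while CPM levels share 1 set over all samples, so a fold change can differ slightly from the ratio of levels. SE was taken from F, as the size of the log2 change divided by its root. Alternatives were DESeq2 1.42.0, other count filters, Rn45s kept, unstranded counts, fits of 2 groups, a replicate block, size cutoffs, each sample left out and, chosen after seeing the data, library totals and levels per kb of the longest coding transcript. Replicate libraries differed by more than sampling noise (chi-square per degree of freedom 1.30 to 4.53 over 23 pairs). Pathway genes are named as at most 3 per list, those with the largest change among genes called with at least 5 CPM, and genes alike as the closest 3 with at least 10 CPM in 1 BMDM group. The members and lists were chosen with earlier results of these data known. Scripts were tested on simulated data. Counts of 1 further STAT gene are not reported here.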

Additional observations from a re-analysis of the deposited data

Results flagged for a closer look

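The change over 4 h differed between RAW264.7 cells with LPS and BMDMs with IFN-γ and LPS for 4 of the 5 genes tested, against 16.4% of all genes with a smaller change in RAW264.7 cells, by a test of the difference itself (edgeR's interaction contrast over 10 samples). The log2 change in RAW264.7 minus that in BMDMs was -3.399 for Stat5a, -2.99 for Stat2, -1.55 for Stat3 and -0.78 for Stat5b. For Stat5a, Stat2 and Stat3 the 4 h rise was larger in BMDMs. For Stat5b the change was 0.52 in BMDMs, or -0.01 by library totals, and -0.17 in RAW264.7, which did not pass. Its difference was lost by library totals (FDR 0.26), with DESeq2 (FDR 0.036), with no filter beyond 1 count (FDR 0.013), with at least 10 counts in every sample (FDR 0.020) and in 7 of 10 fits with 1 sample left out. The BMDM samples had a second agent and came from a different culture, and the part of either was not tested. No group had 4 samples or more, so none was searched for single samples far from the rest.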

How the results depend on the processing

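The study's size cutoffs were set on top of the FDR (log2 change of 1, and of 2 for LPS in RAW264.7). With them, 0 members were called at 1 h, 1 at 24 h, 1 from 4 h to 12 h and 0 from 12 h to 24 h. There were 0 in RAW264.7 with LPS and 2 between RAW264.7 and BMDM controls. Stat5b at 4 h (0.52) and Stat5a at 12 h (0.996) also fell short of the cutoff. So did Stat6 from 1 h to 4 h (-0.34), Stat5a at 12 h against IL-13 (0.61) and Stat5b in the difference between the cells (-0.78). By library totals, an alternative chosen after seeing the data, 5 were called at 12 h and 5 against IL-4, and 2 in RAW264.7 with LPS, where DESeq2 also called 2 and leaving out 1 sample gave 2 to 4. A minimum of 10 counts in every sample gave 5 at 12 h. Direction changed only for values that were not called, and for Stat5b at 4 h (-0.0099 by library totals). By library totals Stat6 was at -0.0018 at 1 h, -0.13 at 24 h, 0.17 from 4 h to 12 h (0.0013 with at least 10 counts) and 0.039 with IL-13, and Stat2 was at 0.093 from 4 h to 12 h. With IL-13, Stat6 was at 0.0076 with DESeq2, 0.016 without a filter, 0.0067 with Rn45s kept and 0.0042 with only the 2 groups. With IL-4 and no filter, Stat2 was at 0.00033 and Stat5b at 0.0042. Leaving out 1 sample moved Stat5a at 1 h from -0.20 to 0.42 and Stat6 from 4 h to 12 h from -0.092 to 0.0061. With IL-4 it moved Stat2 from -0.14 to 0.076, Stat3 from -0.038 to 0.032, Stat5a from -0.29 to 0.14 and Stat5b from -0.12 to 0.088. With IL-13 it moved Stat6 from -0.043 to 0.052 and Stat5b from -0.24 to 0.031, and against IL-4 Stat2 from -0.16 to 0.068 and Stat5b from -0.23 to 0.036. The cause was not tested.

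Replicate numbers are shared between groups, but those that carry the same one did not move together around their group means (correlations of -0.07 to 0.17 in the time course, with 3 of 30 pairs above 0.1, and 8 of 15 samples closest to their own number). With the number as a replicate block, no call of a member changed, and 4 members were called at 4 h and 5 from 1 h to 4 h, as without it. Unstranded counts changed no call of a member either. By library totals, 34 of 54 mean levels moved by 1 SD or more. Per kb of the longest transcript, the order of the 6 genes differed in 7 of 9 conditions. Depth limits Stat4 most. Stat2 and Stat5a, with 48 to 52 and 46 to 56 counts in the control samples, have wider errors than Stat6, with 479 to 517.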

Other observations

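In RAW264.7 with LPS, 15.1% of all genes tested were higher and 12.8% lower. Of 15 cytokines 7 were tested, of which 6 were higher and 0 lower. In 3 of them a group was at 0 counts, so they passed the filter on low counts through the LPS samples and the count supports nothing. Lif and Il6, ligands of receptors that use Stat3, had 0 counts in the control and were at least 1016-fold and 119-fold higher, taking 3 counts over the control samples as the limit. Socs3 rose by 4.29 on the log2 scale (SE 0.18) and all 5 textbook targets of Stat3 were higher. Of 3 Janus kinases tested, Jak2 alone was called, with a rise by 1.96 (SE 0.13), and of 22 receptors 14 were tested, with 5 higher, 4 lower and a median log2 change of -0.06. Il10ra, the IL-10 receptor, rose by 1.72 (SE 0.12), and Ifngr1, the IFN-γ receptor, fell by 1.08 (SE 0.18). All 7 textbook targets of ISGF3 that were tested (8 in the list) were higher (median 3.82), and Irf9 rose by 1.202 (SE 0.12). Some targets of Stat3 and ISGF3 may have passed the filter on low counts through the LPS samples. Their direction may thus have been largely fixed, and the counts of both target lists support nothing.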
